A study of Mus musculus with 10 samples.

Results

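The data described here concern 8 marker genes of dentate granule cells, Prox1, Dsp, C1ql2, C1ql3, Maml2, Plk5, Tdo2 and Lct, in ribosome-bound RNA precipitated from the dorsal and ventral hippocampus. The genes were chosen by symbol from the 54838 gene identifiers of the count files, and all 8 were found and passed the expression filter that left 16806 genes for testing (CPM, counts scaled to library size, above 1 in at least 2 libraries). TRAP, translating ribosome affinity purification, precipitates a GFP-tagged ribosomal protein together with the mRNA on those ribosomes. The animals were male Drd2-Cre;Eef1a1 LSL.eGFP-L10a/+ mice on the C57BL/6 background, about 10 weeks old, in which Cre under the Drd2 promoter turns on eGFP-L10a, and both groups carried both transgenes. Drd2-Cre is active mainly in the mossy cells of the dentate hilus and also in a minority of other hippocampal neurons. The hippocampus had been cut by length, with 1 of 3 equal lengths taken as dorsal and the rest as ventral after the ventral subiculum was trimmed away. Each of the 5 dorsal and 5 ventral libraries was described as pooled tissue of 5 mice. If all were separate pools, p-values measure the spread between pools, not between mice. Whether they were separate was not tested. Each hippocampus was cut into both parts, so dorsal and ventral libraries came from the same mice, but the main test treated them as unpaired.

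Granule cells are the principal neurons of the dentate gyrus. Their axons, the mossy fibers, contact CA3 pyramidal cells and also hilar mossy cells, whose axons in turn return to granule cell dendrites. Granule cells keep being born in the adult from progenitors in the subgranular zone. They are not the main population labelled by Drd2-Cre, and which cells supplied the transcripts below was not measured, because no unbound or whole-tissue library was analysed here. In bulk libraries, fewer cells of a type and less RNA per cell cannot be told apart.

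Counts on genes ranged from 11138676 to 20594364 per library, and 3 counts corresponded to 0.146 to 0.269 CPM, a floor that covers counting error only. Read pairs on no annotated gene made up 21.8 to 33.9% of dorsal libraries and 11.6 to 19.3% of ventral libraries. Calb2, which encodes calretinin and marks ventral mossy cells, was at 65.2 ± 9.32 CPM dorsally and 616 ± 94.6 CPM ventrally, higher in the libraries labelled ventral. Drd2 itself was at 28.1 ± 3.96 CPM dorsally and 20.7 ± 4.36 CPM ventrally. Transcripts used as interneuron markers were also present, at unlike levels. Gad2, an enzyme of GABA synthesis, reached 2853 ± 453 CPM dorsally and 3174 ± 407 CPM ventrally. Gad1 was at 257 ± 43.8 and 355 ± 35.4 CPM, and Slc32a1 at 51.5 ± 4.91 and 54.4 ± 8.93 CPM.

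Of the 8 granule cell markers, 3 were called higher in dorsal libraries (Prox1, Maml2 and Lct), none was called higher in ventral libraries, and 5 passed in neither direction. A call required an adjusted p below 0.05 from the quasi-likelihood test of edgeR, Benjamini-Hochberg adjusted over all 16806 genes, and a log2 ratio of the group means, each CPM plus 1, beyond 0.58 either way. By the same rule 15.7% of all tested genes were called dorsal and 9.85% ventral, 25.5% in all. The median log2 fold change of the 8 genes was 0.54, against -0.0044 over all tested genes, and the dorsal mean was higher for 6 of the 8, against 49.5% of all tested genes. In the same 3 genes every dorsal library lay above every ventral library, which held for 9.81% of all tested genes, and in none of the 8 was every ventral library above every dorsal one, which held for 8.36%.

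Prox1 encodes the homeodomain transcription factor that specifies granule cells and maintains their identity. It lies on the minus strand of chromosome 1 (GRCm38, 190118035 to 190170714, ENSMUSG00000010175). Dorsal replicates 1 to 5 had 320, 251, 291, 296 and 285 CPM, and ventral replicates 1 to 5 had 168, 107, 239, 168 and 192 CPM. The groups did not overlap, and ventral replicate 3, the highest of its group, came closest to the dorsal range. The means were 289 ± 24.7 CPM dorsal and 175 ± 47.5 CPM ventral (SD, n = 5), 1.65-fold higher in dorsal libraries, with a log2 fold change of 0.72 ± 0.16 (SE) and an edgeR adjusted p of 0.00429.

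Lct encodes lactase, a digestive enzyme of the small intestine whose transcript is also found in dentate granule cells. The gene is on the minus strand of chromosome 1 (128284756 to 128328318, ENSMUSG00000026354). Its levels were 24.3, 22.9, 27.4, 29.8 and 27.4 CPM across dorsal replicates 1 to 5, against 10.3, 6.87, 13.2, 12.8 and 14.6 CPM across the ventral ones. The lowest dorsal library was thus well above the highest ventral library. With means of 26.4 ± 2.74 and 11.5 ± 3.04 CPM, Lct had the largest difference of the 8 genes, 2.29-fold (log2 fold change 1.17 ± 0.18, SE, edgeR adjusted p = 0.000505).

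Maml2 encodes a Mastermind-like coactivator that joins the Notch intracellular domain and RBPJ on DNA. It spans chromosome 9 from 13297957 to 13709388 on the plus strand (ENSMUSG00000031925). The dorsal replicates had 29.5, 36.5, 34.9, 29.2 and 31.4 CPM and the ventral replicates 16.5, 10.7, 16.6, 17.5 and 21.1 CPM, again without overlap. The means, 32.3 ± 3.27 and 16.5 ± 3.70 CPM, differed 1.96-fold (log2 fold change 0.94 ± 0.17, SE, edgeR adjusted p = 0.00108). Prox1, Maml2 and Lct kept their call in each of the 24 alternative analyses, including the 10 in which a library was left out. Closest to the required size was Prox1 under a correction for GC content and length, where its edgeR log2 fold change of 0.579 (adjusted p = 0.00834) lay just under 0.58. It stayed called because the rule uses the ratio of the group means, each CPM plus 1.

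The promoters of Prox1, Lct and Maml2 are shown because these were the 3 markers called dorsal. Each sequence is the 250 bases before a RefSeq start site on GRCm38, 5′ to 3′ on the strand of the gene, with the E-box letters CANNTG in capitals. E-boxes are bound by basic helix-loop-helix factors such as Neurod1, which acts in the granule cell lineage.
Prox1, chr1:190170828-190171077, minus strand: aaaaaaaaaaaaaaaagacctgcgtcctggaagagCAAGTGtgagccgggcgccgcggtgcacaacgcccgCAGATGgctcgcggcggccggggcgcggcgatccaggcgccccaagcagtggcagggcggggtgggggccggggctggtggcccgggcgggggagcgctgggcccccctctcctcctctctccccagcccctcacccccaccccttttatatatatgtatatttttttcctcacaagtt
Lct, chr1:128328319-128328568, minus strand: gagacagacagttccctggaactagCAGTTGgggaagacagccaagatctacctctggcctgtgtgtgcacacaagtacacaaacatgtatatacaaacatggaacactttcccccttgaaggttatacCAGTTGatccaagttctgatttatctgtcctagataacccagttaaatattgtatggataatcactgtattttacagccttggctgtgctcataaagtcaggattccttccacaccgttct
Maml2, chr9:13297708-13297957, plus strand: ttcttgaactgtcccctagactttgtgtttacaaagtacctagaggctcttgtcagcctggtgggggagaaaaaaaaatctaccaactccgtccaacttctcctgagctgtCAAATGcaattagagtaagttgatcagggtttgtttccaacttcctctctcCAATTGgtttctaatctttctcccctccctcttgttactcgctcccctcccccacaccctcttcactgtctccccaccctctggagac
All 3 windows held 2 matches to CANNTG, a pattern that reads the same on both strands. At least 1 match occurs in 66.2% of 32851 RefSeq promoter windows of this length, with a median of 1 per window. The share of windows with 2 or more was not counted. In Prox1 the letters were CAAGTG and CAGATG, in Lct CAGTTG at both places, and in Maml2 CAAATG and CAATTG. The windows differed in base composition, with 64.8% GC and 20 CpG in Prox1, 42.8% and 1 in Lct and 48% and 2 in Maml2, against medians of 52.4% and 6 over all windows. Across the 10 windows of the 8 genes, 7 held the letters CANNTG. Prox1 had a second window without the letters, and Maml2 a second one, inside the gene, with 2 matches. A match describes the letters and not a bound site.

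**Figure D1:**
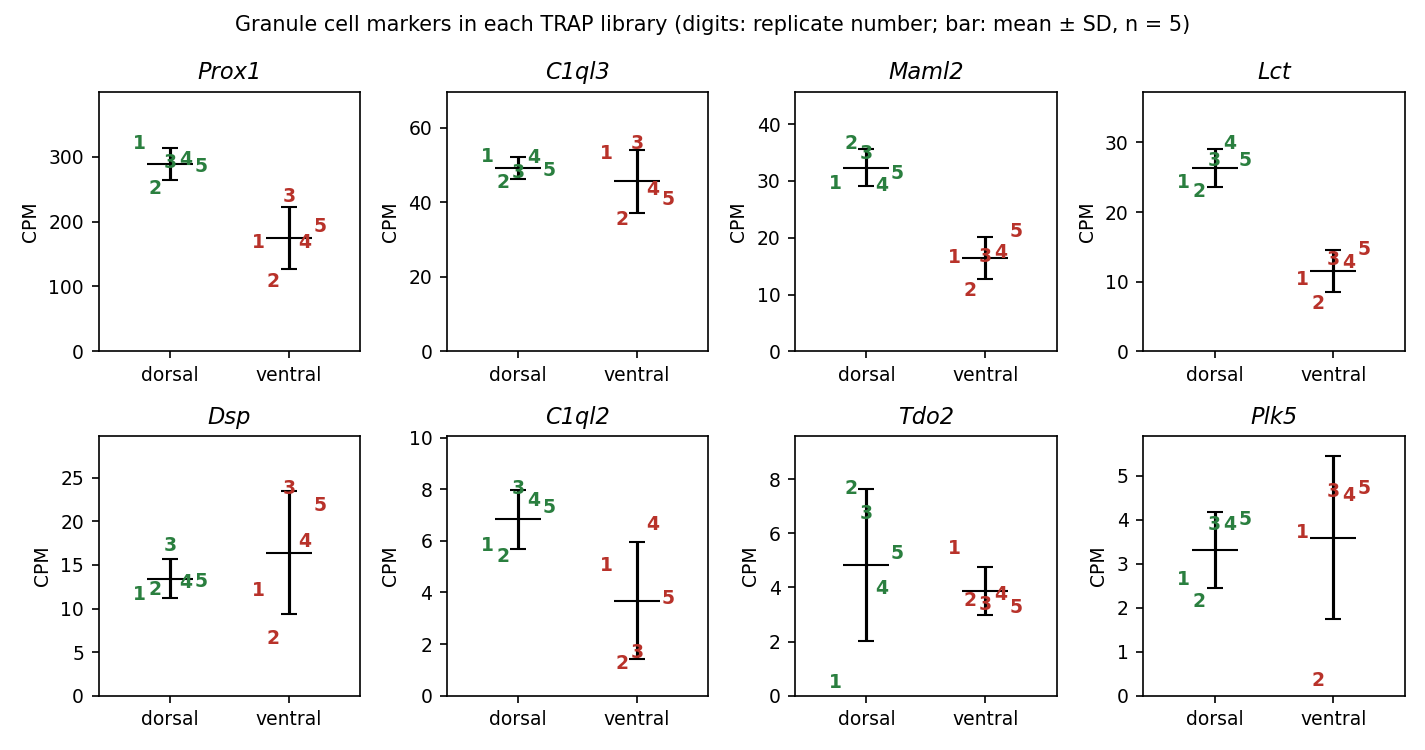
CPM of each of the 8 granule cell markers (vertical axes, each from 0) in the 5 dorsal (green) and 5 ventral (red) TRAP libraries, with the replicate number as the symbol and the bar giving mean ± SD. The dorsal and ventral libraries of Prox1, Maml2 and Lct do not overlap, and ventral replicate 2 is the lowest ventral library in all genes but Tdo2.

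C1ql2 and C1ql3 encode C1q-like proteins that granule cells secrete at mossy fiber synapses, where they bind kainate receptors and neurexin 3. C1ql2 (chromosome 1, 120340582 to 120343174, plus strand, ENSMUSG00000036907) was at 5.83, 5.39, 8.04, 7.57 and 7.31 CPM across dorsal replicates 1 to 5, against 5.05, 1.23, 1.69, 6.64 and 3.78 CPM across the ventral ones. Ventral replicate 4 lay inside the dorsal range and the other 4 ventral libraries below it. The means of 6.83 ± 1.15 and 3.68 ± 2.27 CPM gave a log2 fold change of 0.80 (95% interval 0.09 to 1.52, not adjusted), and the edgeR adjusted p of 0.0767 did not pass. Without ventral replicate 4 the gene was called, at 1.09 with an adjusted p of 0.0374.

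C1ql3 (chromosome 2, 13003457 to 13011806, minus strand, ENSMUSG00000049630) was close between the regions. It had 52.2, 45.3, 48.1, 52.0 and 48.6 CPM across dorsal replicates 1 to 5, against 53.0, 35.5, 55.7, 43.5 and 40.9 CPM across the ventral ones, so that the ventral libraries reached both above and below the dorsal ones. The log2 fold change was 0.11 with an interval of -0.18 to 0.40 (edgeR adjusted p = 0.576), which does not reach a 1.5-fold difference either way. Annotated genes on the opposite strand, Gm37811 and Gm37824, cover much of the locus, and 64.2% of the exonic bases of C1ql3 overlap another gene. Whether the counting used strand is not given in the sources used here, and Gm37824 had 61 to 449 counts in dorsal libraries against 0 to 13 in ventral libraries, so the C1ql3 value is uncertain.

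Since the 2 genes are paralogs with a shared synaptic role, their counts were also compared within each library. The ratio shares the uncertainty of the C1ql3 counts. C1ql2 counts were 13.9 ± 2.30% of C1ql3 counts in dorsal libraries, from 11.2 to 16.7%, and 8.11 ± 5.05% in ventral libraries, from 3.03 to 15.3% (SD, n = 5). The mean log2 ratio was higher by 1.02 in dorsal libraries, with a two-sided exact permutation p of 0.0556 where 0.00794 is the smallest this design allows. Leaving out ventral replicate 4 gave a difference of 1.31 and an exact p of 0.00794, whereas leaving out any other single library gave differences of 0.73 to 1.14 with exact p of 0.0556 to 0.151.

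The remaining 3 markers, Dsp, Plk5 and Tdo2, were called in neither direction, and their dorsal and ventral libraries overlapped. Dsp encodes desmoplakin, which ties desmosomes to intermediate filaments (chromosome 13, 38151294 to 38198577, plus strand, ENSMUSG00000054889). It had 11.6, 12.1, 17.2, 12.97 and 13.1 CPM across dorsal replicates 1 to 5, against 12.1, 6.60, 23.8, 17.7 and 21.9 CPM across the ventral ones. Of the ventral libraries, 3 were above every dorsal library and 1 was below every dorsal library, and the log2 fold change of -0.31 had an interval of -0.88 to 0.27 (edgeR adjusted p = 0.404).

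Plk5 encodes a polo-like kinase of the brain that lacks a functional kinase domain (chromosome 10, 80356459 to 80365489, plus strand, ENSMUSG00000035486). Its dorsal replicates had 2.63, 2.14, 3.88, 3.90 and 4.01 CPM, and its ventral replicates 3.72, 0.352, 4.64, 4.56 and 4.72 CPM. Ventral replicate 2, with 4 counts, was far below the other 9 libraries, whereas ventral replicates 3, 4 and 5 were above every dorsal library. The log2 fold change was -0.18 (interval -1.01 to 0.65, edgeR adjusted p = 0.748).

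Tdo2 encodes tryptophan dioxygenase, which opens the kynurenine pathway and is found in mature granule cells (chromosome 3, 81957090 to 81976202, minus strand, ENSMUSG00000028011). It was at 0.470, 7.67, 6.75, 3.96 and 5.26 CPM across dorsal replicates 1 to 5, against 5.44, 3.52, 3.38, 3.73 and 3.26 CPM across the ventral ones. Dorsal replicate 1, with 5 counts, stood below all the others, and the other 4 dorsal libraries ranged from near the ventral values to above them. The log2 fold change was 0.36 (interval -0.48 to 1.20, edgeR adjusted p = 0.499). The interval of Plk5 includes a 1.5-fold difference in both directions, that of Dsp only a ventral one and that of Tdo2 only a dorsal one. In those directions these libraries could neither show nor bound such a difference.

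**Figure D2:**
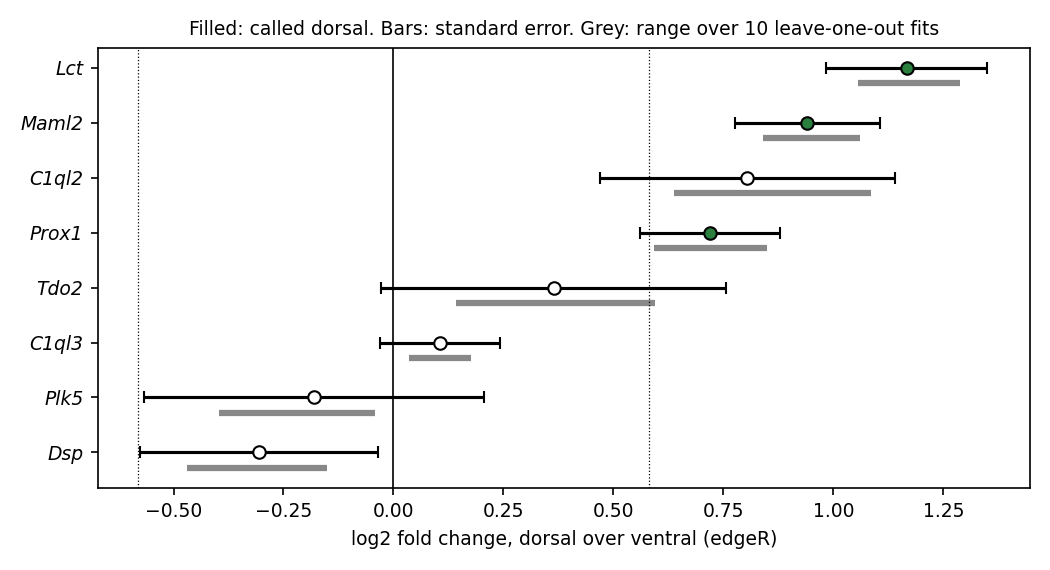
Log2 fold change of dorsal over ventral libraries (horizontal axis, edgeR) for the 8 markers, with bars for the standard error, filled circles for genes called dorsal, grey bars for the range over the 10 fits that each leave out a library, and dotted lines at a log2 ratio of 0.58 in either direction. Lct, Maml2 and Prox1 are called, at 1.17, 0.94 and 0.72, while C1ql2, at 0.80, has an SE of 0.33 and is not.

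The level of each marker was placed among all tested genes. By mean CPM over the 10 libraries Prox1 ranked 852 of 16806, so that 5.06% of genes were above it. C1ql3 ranked 4110, Maml2 6083, Lct 6857 and Dsp 7616, while C1ql2 at 10473, Tdo2 at 10955 and Plk5 at 11545 had 62.3, 65.2 and 68.7% of genes above them. Because longer transcripts give more counts, genes were compared with each other per kb of exon.

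On that scale Prox1 was highest at 27.6 CPM per kb, followed by C1ql3 at 18.7, Maml2 at 3.70, Lct at 2.96, C1ql2 at 2.63, Dsp at 1.54, Plk5 at 1.29 and Tdo2 at 1.12. The place of C1ql3 is uncertain, because of its overlap with genes on the opposite strand. The order of the last genes depended on the region, since the ventral mean of C1ql2 (1.84) was above that of Lct (1.80) and the dorsal means of Plk5 and Tdo2 were both 1.24 CPM per kb. The median tested gene had 2.96 CPM per kb. Prox1 and C1ql3 were above that median in all 10 libraries, Maml2 in 6, Lct in 5 and C1ql2 in 4, whereas Dsp, Plk5 and Tdo2 were below it in all 10. In this order C1ql3 was above Maml2 in all 10 libraries, Maml2 above Lct in 9, and Prox1 above C1ql3 in 8, all 5 dorsal and 3 ventral. From Lct downward, neighbours changed places in 2 or more libraries, with Lct above C1ql2 in 8, C1ql2 above Dsp in 7, Dsp above Plk5 in 7 and Plk5 above Tdo2 in 6. Per length, Prox1 was 24.7-fold above Tdo2 and 10.5-fold above C1ql2, so that the markers did not share 1 level.

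**Figure D3:**
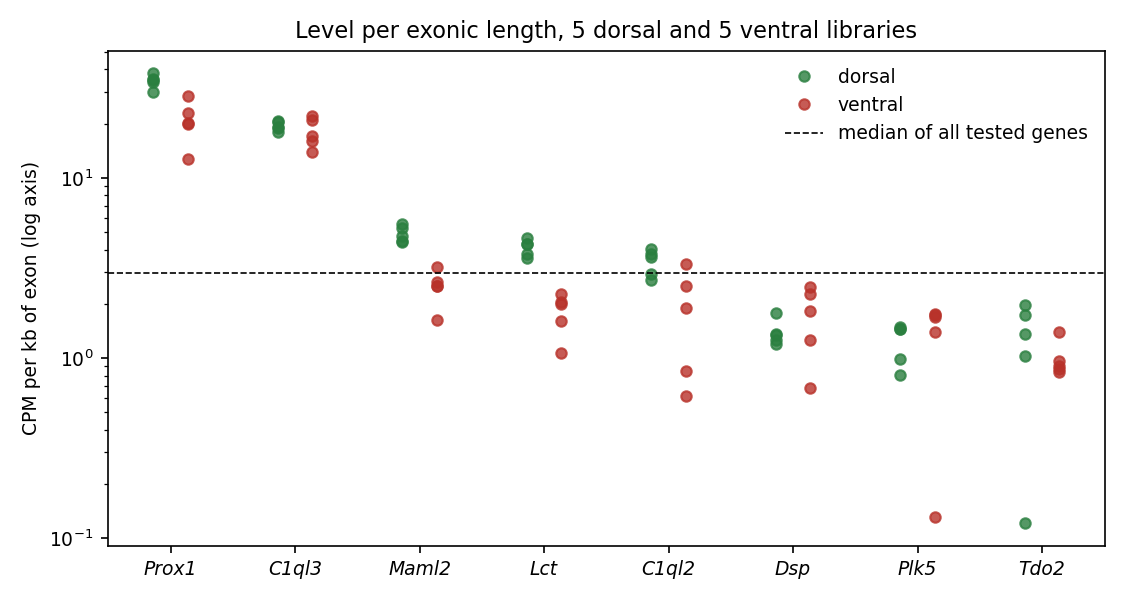
CPM per kb of exon on a log axis for the 8 markers, with 1 point for each dorsal (green) and ventral (red) library and a dashed line at the median of all tested genes, 2.96 CPM per kb. Prox1 and C1ql3 lie above the line in all 10 libraries, and Dsp, Plk5 and Tdo2 below it in all 10.

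Summed over the 8 genes, the dorsal libraries held 446, 383, 438, 436 and 422 CPM and the ventral libraries 274, 172, 358, 275 and 303 CPM. The sums did not overlap, at 425 ± 24.8 against 276 ± 67.4 CPM (SD, n = 5). Prox1 made up 65.5 to 71.6% of the sum in dorsal and 61.3 to 66.7% in ventral libraries, so that the sum mostly restates Prox1. Without Prox1 the other 7 genes summed to between 127 and 146 CPM in dorsal libraries and between 64.8 and 119 CPM in ventral libraries. Most of that difference came from Maml2 (means of 32.3 and 16.5 CPM) and Lct (26.4 and 11.5 CPM), the other called markers.

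The ventral libraries were the more uneven group. The SD of the log2 level was larger in ventral than in dorsal libraries for 7 of the 8 genes, Tdo2 being the exception, against 49.4% of all tested genes. Ventral replicate 2 was the lowest ventral library in 7 of the 8, again all but Tdo2, whereas 27.4% of all tested genes were lowest there. Without it the ventral SD remained larger in 6 of the 8 genes, against 41.1% of all tested genes. Of the lists described below, that library was also lowest of its group in the sums of other granule cell, Notch pathway and desmosomal genes. The same held for the astrocyte, oligodendrocyte, CA2 and microglial and endothelial lists. It was not lowest for progenitor and immature neuron genes, nor for the mossy cell, CA3, CA1 and both interneuron lists. Nor was it for the partners of C1q-like proteins, the relatives of Plk5 and the genes of tryptophan breakdown. Dorsal replicate 2 was the lowest dorsal library in 5 of the 8 genes, against 25.0% of all tested genes.

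A second list of 16 genes known from granule cells gave a mixed picture. All 16 were tested, 4 were called dorsal and 2 ventral, and their median log2 fold change was 0.10, read against 15.7% and 9.85% called and a median of -0.0044 over all tested genes. Their summed level, 2373 to 2745 CPM in dorsal and 2226 to 2720 CPM in ventral libraries, overlapped between the groups. Fam163b ranged from 108 to 157 CPM dorsally and from 56.8 to 86.6 CPM ventrally, without overlap (log2 fold change 0.83 ± 0.14, SE, edgeR adjusted p = 0.000986). Glis3, a zinc finger transcription factor, was at 33.6 ± 10.2 and 12.5 ± 5.67 CPM (1.43 ± 0.30, adjusted p = 0.00313). Plekha2, a phosphoinositide-binding adaptor, was at 19.9 and 11.3 CPM (0.81 ± 0.22, adjusted p = 0.0147), with 26.5% of its exonic bases shared with another gene. Penk, which encodes proenkephalin, was at 32.2 ± 17.3 and 15.3 ± 4.02 CPM (1.09 ± 0.35, adjusted p = 0.0294), with 14.3% of its exonic bases shared, and lost its call without any of 5 libraries (dorsal replicate 3, 4 or 5 or ventral replicate 3 or 5) and also under the replicate block, with adjusted p of up to 0.0807.

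Calb1 went the other way. It encodes calbindin, a calcium buffer of granule cells that CA1 pyramidal cells and interneurons also make, and had 95.9 to 160 CPM in dorsal and 185 to 274 CPM in ventral libraries without overlap (log2 fold change -0.88 ± 0.14, SE, edgeR adjusted p = 0.000546). Rasl10a, a small GTPase, was at 11.8 and 19.0 CPM (-0.67 ± 0.18, adjusted p = 0.0135) and was not called without dorsal replicate 1 or 2 or under the correction for GC content and length. Under that correction Trhr, a receptor for thyrotropin-releasing hormone, was called ventral in its place, unless the replicate block was added. The 2 genes of this list with the highest mean CPM were called in neither direction. Rasgrp1, a Ras activator, had 968 ± 104 CPM dorsally and 819 ± 70.1 CPM ventrally (adjusted p = 0.0623), and Stxbp6, a syntaxin-binding protein, 617 ± 53.4 and 657 ± 66.2 CPM (adjusted p = 0.482).

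The 9 genes of neural progenitors and immature neurons, the stages before a mature granule cell, formed the third list. Of the 7 that were tested, 2 were called dorsal and none ventral, with a median log2 fold change of 0.44, beside 15.7% and 9.85% called and a median of -0.0044 over all tested genes. Neurog2 and Eomes stayed under the filter at no more than 1.17 CPM. Sox11, a transcription factor of immature neurons, was at 97.5 ± 27.3 CPM dorsally and 45.9 ± 7.15 CPM ventrally (log2 fold change 1.08 ± 0.18, SE, edgeR adjusted p = 0.000858). Igfbpl1, a secreted protein of young neurons, had 47 to 179 counts in each dorsal library, and 0, 32, 1, 0 and 0 counts in ventral replicates 1 to 5, so that its fitted log2 fold change of 4.10 rests on few ventral counts (adjusted p = 0.000818 with edgeR and 0.0602 with DESeq2). Dcx, which encodes doublecortin, was at 65.3 ± 11.5 and 46.5 ± 8.94 CPM, with an adjusted p of 0.0298 but a ratio under the required size. Neurod1 was at 35.9 ± 6.59 and 36.1 ± 8.46 CPM (adjusted p = 0.983).

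**Figure D4:**
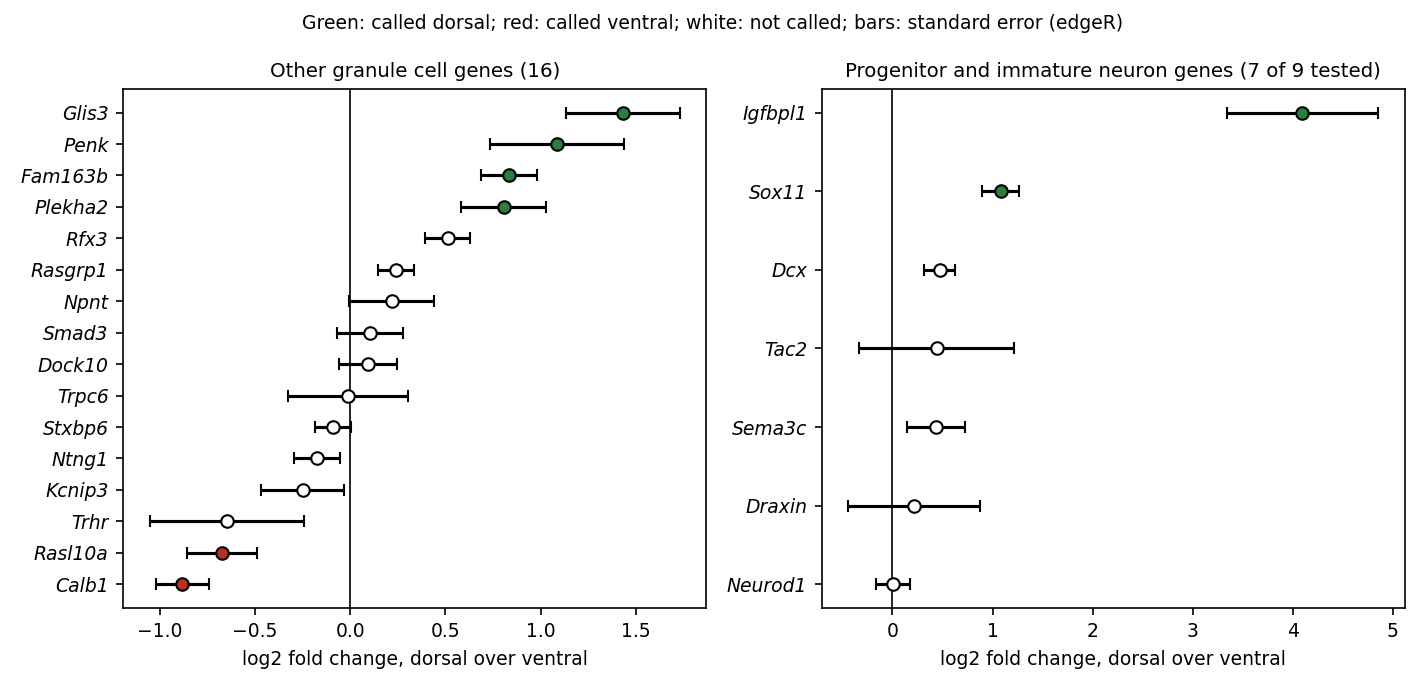
Log2 fold change of dorsal over ventral libraries (horizontal axes, edgeR, bars for the standard error) for the 16 other granule cell genes and the 7 tested progenitor and immature neuron genes, in green where called dorsal, red where called ventral and white where not called. Fam163b, Glis3, Plekha2 and Penk lie on the dorsal side and Calb1 and Rasl10a on the ventral side, and both called genes of the immature list are dorsal.

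The genes that act with the markers were followed in 5 short lists of 32 genes in all, of which 22 were tested, 5 were called dorsal and 2 ventral, with a median log2 fold change of 0.26, beside 15.7% and 9.85% called and a median of -0.0044 over all tested genes, so that the ventral count was near that share. For the C1q-like proteins, the paralog C1ql1 ranged from 1.49 to 7.70 CPM dorsally and from 0.929 to 2.09 CPM ventrally (log2 fold change 1.56 ± 0.48, SE, edgeR adjusted p = 0.0233), a call that was lost without dorsal replicate 3, dorsal replicate 4 or ventral replicate 5. C1ql4 did not exceed 0.055 CPM. Adgrb3, an adhesion receptor for C1q-like proteins, was at 83.3 ± 7.08 and 44.8 ± 5.82 CPM without overlap (0.89 ± 0.12, adjusted p = 0.000201). Grik2, a kainate receptor subunit, was at 194 ± 52.7 and 110 ± 7.64 CPM (0.82 ± 0.17, adjusted p = 0.00268). Under a correction for GC content and length both genes fell below the required size, with Grik2 also losing its adjusted p (0.296 or more). Nrxn3, which encodes neurexin 3, did not pass at 450 ± 65.6 and 402 ± 25.3 CPM (adjusted p = 0.244).

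Around Maml2, 2 of 7 Notch pathway genes were called dorsal, beside 15.7% of all tested genes. The receptor Notch1 was at 6.48 ± 3.62 CPM dorsally and 1.89 ± 1.18 CPM ventrally (log2 fold change 1.76 ± 0.46, SE, edgeR adjusted p = 0.0107, 9.76% of exonic bases shared), and Notch4 at 1.51 ± 0.399 and 0.633 ± 0.226 CPM (1.23 ± 0.42, adjusted p = 0.0319), which lost its call without any of 5 libraries (dorsal replicate 1, 2 or 5 or ventral replicate 1 or 4), with DESeq2, without the expression filter and with the dispersions of edgeR 3. Rbpj, the DNA-binding partner, was at 26.4 ± 1.44 and 21.5 ± 4.17 CPM, and Notch2 at 15.2 ± 2.93 and 11.6 ± 4.70 CPM, with adjusted p of 0.181 and 0.343. The paralogs Maml1 and Maml3 were called in neither direction.

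Among relatives of Plk5, Plk3 was called ventral at 2.26 ± 1.10 CPM dorsally and 5.86 ± 1.21 CPM ventrally (log2 fold change -1.38 ± 0.33, SE, edgeR adjusted p = 0.00654). The activity-regulated kinase Plk2 was at 116 ± 8.85 and 112 ± 8.57 CPM (adjusted p = 0.673), and Plk4, a centriole kinase, was at 9.94 ± 11.5 and 9.62 ± 5.40 CPM. Of 8 further genes of tryptophan breakdown only Ido2 and Kyat1 passed the filter, and neither was called. The other 6 did not exceed 0.88 CPM in any library. Of 7 desmosomal genes 5 were tested. Evpl, which encodes the plaque protein envoplakin, was called ventral at 1.04 ± 0.552 and 2.85 ± 0.638 CPM (-1.35 ± 0.40, adjusted p = 0.0188). Pkp4, a plakophilin-related junction protein, was at 430 ± 6.64 and 364 ± 35.2 CPM, with an adjusted p of 0.0457 but a ratio under the required size, and Pkp2 was at 26.4 ± 3.33 and 18.0 ± 5.32 CPM (adjusted p = 0.0503).

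Across the 10 libraries, the 5 of 13541 tested protein-coding genes with the level pattern nearest to Prox1 were Aqp4, Pex5l, Ccdc66, Ccdc153 and Tor1aip1. Likeness was the root mean square distance between log2(CPM + 1) profiles, each centred and scaled over the libraries, and was 0.172, 0.206, 0.220, 0.236 and 0.237 in that order, where 0 is the same pattern. Their levels were not compared with Prox1 further, since the likeness itself chose them.

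Some transcripts of other cell types also differed between the regions, in both directions, where 25.5% of all tested genes were called either way. Beside the higher sum of the granule cell markers, the 4 oligodendrocyte genes summed to 252 to 333 CPM in dorsal and 152 to 236 CPM in ventral libraries, 1 of 4 called dorsal (Mobp). Mobp carried most of that difference, at 184 ± 22.8 and 102 ± 24.9 CPM, beside Cnp at 85.5 ± 10.6 and 84.9 ± 17.4 CPM. The 5 CA3 genes summed to 159 to 185 and 93.9 to 121 CPM, 2 of 5 called dorsal (Bok and Nectin3), and the 5 CA2 genes to 160 to 193 and 119 to 157 CPM, with Cacng5 called dorsal. The 4 CA1 genes summed to 157 to 234 and 215 to 305 CPM, 1 of 4 called ventral (Mpped1). The 8 mossy cell genes summed to 530 to 599 and 1155 to 1398 CPM, with Calb2 and Satb1 called ventral, Satb1 at 270 ± 28.8 and 450 ± 33.2 CPM. Calb2, at 65.2 ± 9.32 and 616 ± 94.6 CPM, carried most of that difference. Not all mossy cell genes lay on the ventral side, with Ociad2 at 177 ± 12.7 and 147 ± 13.6 CPM (adjusted p = 0.0448, a ratio under the required size). The 7 interneuron genes summed to 3265 to 4359 and 3947 to 5186 CPM, with Sst, Pvalb and Lhx6 called ventral. Gad2 made up most of the interneuron sum. All 7 interneuron genes had a higher ventral mean, where 49.5% of all tested genes had a higher dorsal mean. The CA1 and interneuron sums overlapped between the regions. The 5 astrocyte genes overlapped at 241 to 317 and 228 to 362 CPM, with Gfap and Slc1a3 called dorsal and Aldh1l1 ventral. Microglial and endothelial genes, 7 in all, stayed between 14.4 and 58.8 CPM in every library, with C1qa called dorsal. Of these calls, Nectin3, Sst and Slc1a3 were lost under the correction for GC content and length, Slc1a3 with the dispersions of edgeR 3, and Pvalb with DESeq2, with its size factors, with upper-quartile factors and with a stricter expression filter. With single libraries left out, Sst was lost without ventral replicate 1, Gfap without dorsal replicate 3, Aldh1l1 without dorsal replicate 4, Pvalb without dorsal replicate 1, 4 or 5 or ventral replicate 2 or 5, and Slc1a3 without dorsal replicate 3, 4 or 5 or ventral replicate 2 or 4. The part of these other cell types, or of the share of read pairs outside genes, in the dorsal calls of the markers was not tested.

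Prox1 is also made by interneurons that arise in the caudal ganglionic eminence. The 6 genes of that class summed to 773 to 970 CPM in dorsal and 1072 to 1302 CPM in ventral libraries, without overlap. Most of the sum came from Cnr1 (519 and 674 CPM) and Cck (179 and 263 CPM), and neither was called. Both passed the edgeR adjusted p, at 0.0307 for Cnr1 and 0.00755 for Cck, but had ratios under the required size. Every ventral library was above every dorsal library for Cck. All 6 had a higher ventral mean, where 49.5% of all tested genes had a higher dorsal mean. Only Htr3a, a serotonin receptor channel, was called ventral, beside 9.85% of all tested genes. It was at 6.05 ± 1.92 and 16.1 ± 2.02 CPM (log2 fold change -1.44 ± 0.22, SE, edgeR adjusted p = 0.00047). The part of these interneurons in the Prox1 levels was not tested.

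**Figure D5:**
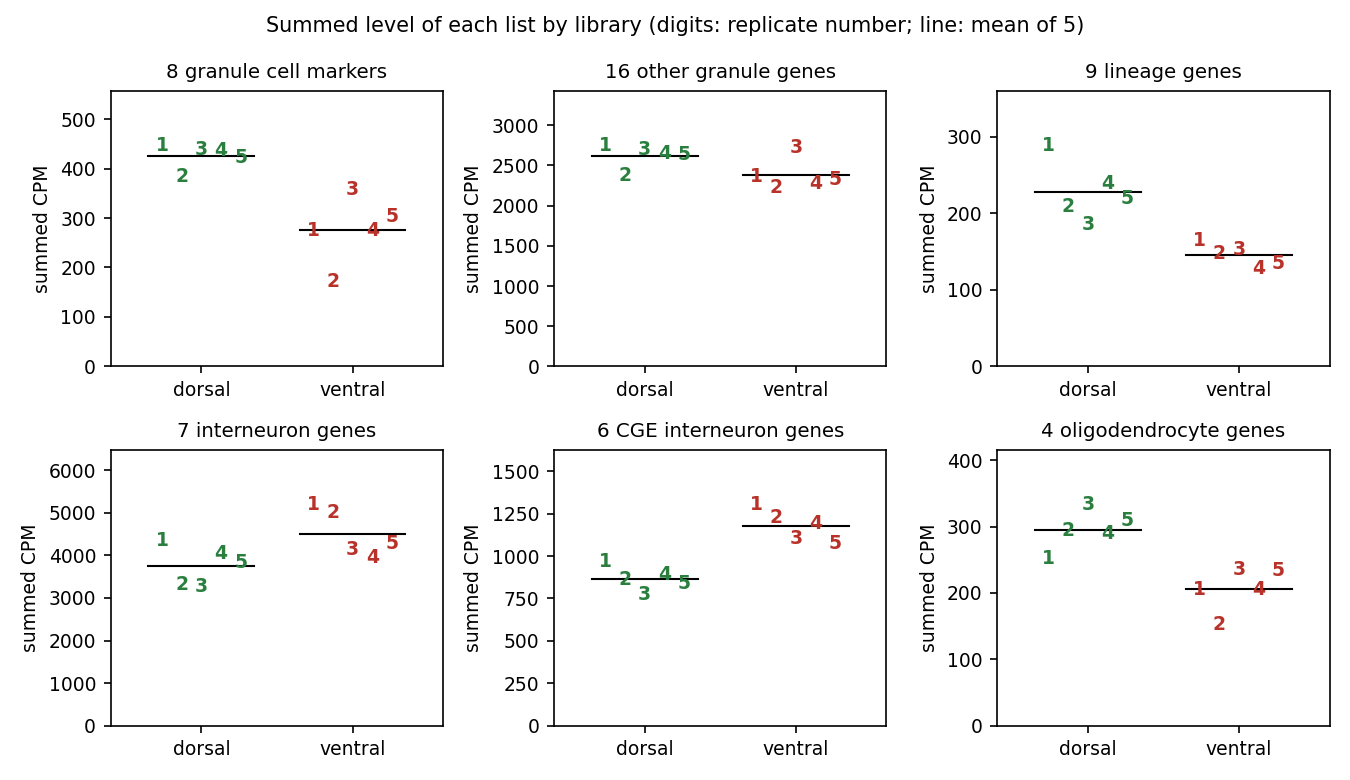
Summed CPM (vertical axes, each from 0) of 6 gene lists in the 5 dorsal (green) and 5 ventral (red) libraries, with the replicate number as the symbol and a line at the mean. The 8 granule cell markers, the progenitor and immature neuron genes (titled lineage genes) and the oligodendrocyte genes are higher in all dorsal libraries, the caudal ganglionic eminence (CGE) interneuron genes are higher in all ventral libraries, and the 16 other granule cell genes overlap.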

How the data were processed

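TRAP RNA of 5 dorsal and 5 ventral libraries, described as hippocampal pools, was analysed. The authors amplified the RNA (Ovation V2), sequenced 50 bp paired ends, aligned to GRCm38 with STAR 2.5.2b and counted per Ensembl gene with HTSeq-count 0.7.2. The deposited values are these counts, whole numbers that the authors did not normalize. The annotation release and strand setting are not given in the sources used here. Rows that name no gene, among them read pairs on no gene (11.6 to 33.9%) and on several genes (5.92 to 8.66%), stayed out of library sizes and tests. Identifiers were matched to symbols and exons of GENCODE M21 (54809 of 54838) and promoters to RefSeq.

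In R 4.3.3, edgeR 4.0.16 kept genes whose CPM exceeded 1 in 2 or more libraries, scaled libraries by TMM and ran the quasi-likelihood test of dorsal against ventral. Standard errors are the log2 fold change over the square root of F, and intervals use the degrees of freedom of the test. CPM are over TMM-scaled sizes. On simulated dorsal and ventral counts of 16122 genes, the test called 42.6% of 94 genes changed by 1 on the log2 scale (83.0% of those at 10 CPM or more) and 66.7% of 99 genes changed by 1.5 (100% of those at 10 CPM or more), with 8 false calls in all. DESeq2 1.42.0 and mgcv 1.9.3 (GC and length trends) served for alternatives. Groups and replicate numbers came from the labels. No 2 libraries of a group were duplicates (chi-square per degree of freedom 4.36 to 45.1), and dorsal replicates 4 and 5 were the closest pair. Those dorsal libraries were lowest of their group in 7.48 and 7.17% of tested genes, and ventral replicates 4 and 5 in 8.10 and 10.4%. Replicates 1 to 3 of either group were lowest in 25.0 to 34.8%. Replicates 4 and 5 were highest in 7.82 and 8.28% dorsally and 8.92 and 12.2% ventrally, against 23.8 to 29.5% for replicates 1 to 3. Whether all 5 libraries of a group came from separate pools was not tested. If some did not, the spread within groups would be too small and the p-values too low. Counts of non-overlapping genes and fits without 1 library would then also look too favourable.

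Some genes of the lists are not reported here. The members and gene lists were chosen with earlier results of these data known. Named were the 8 markers, genes of the other lists that were called or among the 2 highest by mean CPM, and the 5 genes nearest to Prox1. Dcx, Neurod1, Neurog2, Eomes, C1ql4, Maml1, Maml3, Drd2, Ociad2, Trhr, Gad1, Slc32a1 and the overlapping genes of C1ql3 were named after their values were seen.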

Additional observations from a re-analysis of the deposited data

Results flagged for a closer look

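Among 120 sets of 5 libraries, 1 for each named gene and group, 12 had a library whose gap to the nearest of the others exceeded 0.71 of the whole range, Dixon's critical value for 5. Chance flags about 1 in 20 such sets. Of 16 sets for the granule cell markers 3 were among them. Dsp was high in dorsal replicate 3 at 17.2 CPM against 11.6 to 13.1 in the other dorsal libraries. Plk5 was low in ventral replicate 2 at 0.352 CPM against 3.72 to 4.72. Tdo2 was high in ventral replicate 1 at 5.44 CPM against 3.26 to 3.73.

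In the other lists, 4 more sets had ventral replicate 2 apart, with Igfbpl1 at 2.82 CPM against 0 to 0.084, Notch2 at 3.35 against 12.4 to 14.6, Bok at 71.6 against 47.6 to 51.1 and Slc1a3 at 13.3 against 34.2 to 37.8. Nectin3 was high in ventral replicate 3 at 57.8 CPM, and Htr3a in ventral replicate 5 at 19.6 CPM. In dorsal replicate 2, Plk4 was high at 30.5 CPM against 4.23 to 5.59 and Lhx6 low at 35.7 against 49.7 to 54.5. Pcp4 was high in dorsal replicate 1 at 157 CPM against 123 to 125.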

How the results depend on the processing

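Over 24 alternatives (the normalization, filters, tests and thresholds, the replicate number as a block, offsets for GC content and length, and each library left out), Prox1, Maml2 and Lct were called in all 24 and Dsp, C1ql3, Plk5 and Tdo2 in none. The quasi-likelihood dispersions of edgeR 3 were added after seeing the data. C1ql2 was called in 3, at 0.88 under the offsets, 1.03 under the offsets with the replicate block and 1.09 without ventral replicate 4. Tdo2 changed sign under the offsets with the block, to -0.060. Leaving out 1 library moved Prox1 from 0.59 to 0.85, Maml2 from 0.84 to 1.06 and Lct from 1.06 to 1.29, the other granule cell genes called ventral from 1 to 2, and the C1ql2 to C1ql3 difference from 0.73 to 1.31. At an adjusted p below 0.01, other granule cell genes called fell to 2 dorsal and 1 ventral, partner and family genes to 2 dorsal and 1 ventral, and all calls to 1498 dorsal and 897 ventral from 2636 and 1655. The offsets left 3 partner and family genes called dorsal, with and without the block, and with the block 1 other granule cell gene called ventral, and they changed the split over all genes to 2270 dorsal and 2189 ventral. DESeq2 left 1 progenitor and immature neuron gene called dorsal instead of 2. The causes were not tested.

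Same-numbered dorsal and ventral libraries did not deviate together (correlations of -0.032 to 0.069, with 2 of 5 dorsal libraries closest to their own number), so the numbers were not taken as pairs. Which dorsal and ventral libraries share mice is not given. With the replicate number as a block 3 markers were called dorsal, other granule cell genes called dorsal fell to 3, and the C1ql2 to C1ql3 difference was 1.02 (exact sign-flip p = 0.125). Per kb of exon, ranks became 1647 for Prox1, 2448 for C1ql3, 7595 for Maml2, 8397 for Lct, 8831 for C1ql2 and 10692 for Dsp. Counting precision was lowest for Plk5 and Tdo2, at 4 and 5 counts in their lowest libraries, while libraries of like depth held 55 and 40.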
